A study of Mus musculus with 10 samples.

Results

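The 8 genes described here encode pore-forming alpha-1 subunits of voltage-gated calcium channels: Cacna1a, Cacna1b, Cacna1c, Cacna1d, Cacna1e, Cacna1g, Cacna1h and Cacna1i. They were taken by gene name from the gene counts, as 8 of 32531 gene rows, by a rule that names the genes and sets no threshold on their values. The counts come from ribosome-bound RNA of the medial habenula of adult Chat-TRAP (DW167) mice, in which a Chat bacterial artificial chromosome transgene drives EGFP fused to the ribosomal protein Rpl10a. Left and right habenulae were dissected and homogenised apart, and polysomes carrying the tag were captured on anti-EGFP beads, the method called TRAP (translating ribosome affinity purification). The groups are 5 left and 5 right pull-down libraries of the same line, with no treatment named. Input RNA was not used here, so the values are levels in the pull-down and not enrichment over whole tissue. The labels do not say whether the replicates of a side were separate animals or pools, so p-values measure only the spread between these libraries, which may be technical.

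Each pore subunit folds into the calcium-selective channel itself. For the pores encoded by Cacna1a, Cacna1b, Cacna1c, Cacna1d and Cacna1e, beta and alpha2delta subunits bring the pore to the membrane and tune its opening. L-type channels (Cacna1c, Cacna1d) couple depolarisation to signalling in the cell body and to gene expression. P/Q-, N- and R-type channels (Cacna1a, Cacna1b, Cacna1e) admit the calcium that triggers transmitter release, and T-type channels (Cacna1g, Cacna1h, Cacna1i) open near rest and shape firing in bursts or pacemaking. Medial habenula neurons fire spontaneously and send cholinergic and glutamatergic axons to the interpeduncular nucleus, where R-type channels are known to take part in transmitter release from habenular terminals.

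Libraries held between 42488448 and 67942836 gene reads, and levels are given as CPM, counts scaled to 1000000 gene reads. Replicates 1 and 5 of both sides stood apart from replicates 2 to 4 in markers of other cells. The summed CPM of 15 astrocyte markers (led by Slc1a2 and Glul) was 216 to 230.3 in replicates 1 and 5, 651 in right replicate 2, and 1197 to 2350.0 in the other 5 libraries. All 15 were higher in every one of replicates 2 to 4 than in any of replicates 1 and 5, as were 12 of 12 oligodendrocyte markers (among them Mbp; sums of 106.5 to 119.9 against 433 to 1811) and 8 of 8 oligodendrocyte precursor markers (Olig1, Vcan; 8.48 to 10.8 against 44.7 to 167). The same was true of 9 of 12 microglial markers (among them Csf1r; sums of 7.21 to 9.29 against 18.7 to 47.5), 11 of 14 endothelial and pericyte markers (Flt1 among them, Pecam1 not; 5.30 to 8.27 against 21.5 to 54.8) and 4 of 10 GABAergic markers (Gad2, Gad1; 24.7 to 43.5 against 129.6 to 495). It was also true of 10 of 12 thalamic markers (Rora among them, Slc17a6 not; sums of 865 to 899.5 against 1487 to 3175) and 6 of 8 lateral habenula markers (Pcdh10, Peg10; 91.1 to 103 against 179.9 to 484). In the thalamic list 1 marker, Calb2, was instead lower in all of replicates 2 to 4, as was 1 in the lateral habenula list, Cartpt. Calb2 is also on the medial habenula list. Of the lists named so far, Aif1, Cldn5, Cdh5, Gbx2, Dlx1, Dlx2, Dlx6 and Sox14 had no read in at least 1 library. Of 10 choroid plexus and ependymal markers (Otx2, Foxj1), 3 were higher and 1 lower in that way. The 20 medial habenula markers, all detected in every library, were led by Nwd2 and Lrrc55, and 16 of them were lower in replicates 2 to 4, with sums of 6223 to 10842 against 12524 to 13017. Chat itself was read at 84.5 to 195.5 CPM.

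Cacna1e was the most abundant pore subunit in every library, and it varied least. The other members fell into genes that were nearly as even, Cacna1d and Cacna1i, and genes whose reads were scarce in replicates 1 and 5 of both sides and several-fold higher in replicates 2 to 4: Cacna1a, Cacna1b, Cacna1g and Cacna1h, with Cacna1c between them. No member differed between left and right in the edgeR test over 10 libraries. In bulk RNA of this kind, fewer cells that carry a transcript and less of it per cell cannot be told apart.

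**Figure D1:**
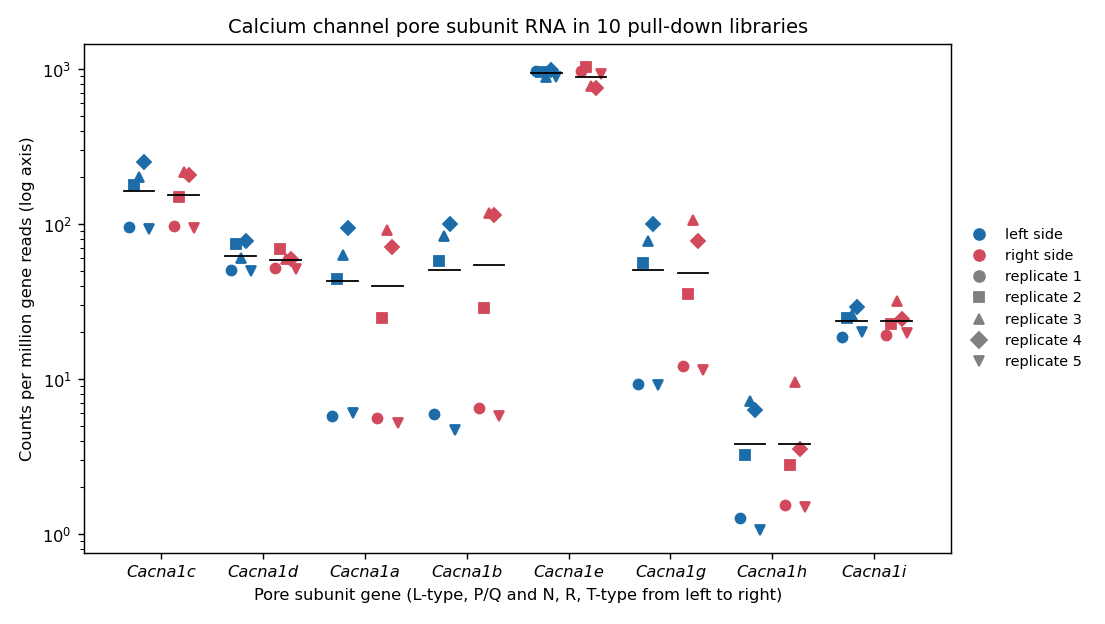
CPM of the 8 pore subunit genes (log axis) in each library, with colour for the side, symbol for the replicate number and a line for the mean of 5 libraries. Cacna1e stays between 752 and 1029 CPM, while Cacna1a, Cacna1b and Cacna1g drop from up to 93.9, 118 and 106.5 CPM to below 13 CPM in replicates 1 and 5.

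Cacna1e encodes the R-type pore, which opens at strong depolarisation and is set apart from the P/Q- and N-type pores by its resistance to their classic toxins. The gene lies at chr1:154390731-154884501 on the minus strand (GENCODE M21, GRCm38). Its level in left replicates 1 to 5 was 965, 952, 889, 985 and 892 CPM. In right replicates 1 to 5 it was 966, 1029, 781, 752 and 927 CPM. The highest and lowest libraries were right replicates 2 and 4, the ranges of the sides overlapped, and replicates 1 and 5 lay within the range of the others. The left mean was 937 ± 43.8 CPM and the right mean 891 ± 119.8 CPM (SD, n = 5). The ratio of highest to lowest library was 1.37, and 8.76% of tested genes varied less. This ratio was also 1.37 within replicates 2 to 4, and it was 1.08 within replicates 1 and 5. Cacna1d was lower in both sets, at 1.30 and 1.05. Within replicates 1 and 5 Cacna1c (1.06) and Cacna1i (1.07) were lower as well.

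Cacna1c encodes the L-type pore that predominates in heart and in most brain neurons (chr6:118587240-119196418, minus strand). Left replicates 1 to 5 had 95.9, 177, 201, 251 and 92.3 CPM. Right replicates 1 to 5 had 97.6, 148, 216, 208 and 94.6 CPM. All of replicates 1 and 5 were within 92.3 to 97.6 CPM, below the other 6 libraries, and the sides overlapped at means of 163.5 ± 68.6 and 153 ± 58.3 CPM. The highest library was 2.71 times the lowest, and 1.69 times within replicates 2 to 4 alone.

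Cacna1d encodes the L-type pore that opens at more negative voltages and contributes to pacemaking (chr14:30039939-30491455, minus strand, with 4.67% of its exonic bases shared with Chdh on the other strand). Its level in left replicates 1 to 5 was 50.6, 74.0, 60.7, 77.1 and 49.8 CPM. Its level in right replicates 1 to 5 was 52.1, 69.4, 59.1, 59.6 and 51.1 CPM. Both replicate 1 and replicate 5 were again the lowest of each side, but the highest library was only 1.55 times the lowest, and 21.8% of tested genes varied less. The side means were 62.5 ± 12.7 and 58.3 ± 7.37 CPM, and their ranges overlapped.

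Cacna1a encodes the P/Q-type pore, the main calcium source for release at many fast central synapses (chr8:84388440-84640246, plus strand, 3.81% of exonic bases shared with Gm16183 on the other strand). Left replicates 1 to 5 had 5.73, 44.0, 63.1, 93.9 and 5.99 CPM. Right replicates 1 to 5 had 5.56, 24.8, 91.9, 71.2 and 5.21 CPM. The 4 libraries of replicates 1 and 5 lay within 5.21 to 5.99 CPM, right replicate 2 was the lowest of the rest, and the sides overlapped with means of 42.6 ± 37.9 and 39.7 ± 39.7 CPM. The fewest reads of the gene in any library were 332, in left replicate 5, so the low values were measured well above a count of 0. The highest library was 18.0 times the lowest, a ratio above that of 94.5% of tested genes, and 3.79 times within replicates 2 to 4 alone.

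Cacna1b encodes the N-type pore, a second calcium source at presynaptic terminals and a target of inhibition by G protein-coupled receptors (chr2:24603887-24763152, minus strand). Left replicates 1 to 5 had 5.90, 57.6, 84.2, 100.4 and 4.67 CPM. Right replicates 1 to 5 had 6.54, 28.9, 118, 114 and 5.80 CPM. Replicates 1 and 5 of both sides were at 4.67 to 6.54 CPM and all other libraries at 28.9 CPM or more, with side means of 50.6 ± 44.1 and 54.6 ± 56.8 CPM. This was the widest range among the members, 25.2 times from left replicate 5 to right replicate 3, above that of 96.4% of tested genes. Within replicates 2 to 4 the ratio was 4.08, and within replicates 1 and 5 it was 1.40.

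The start regions of the member with the narrowest range and the member with the widest are given here, since these bound what the family did across the libraries. Both are 300-base windows from 250 bases before to 50 after a RefSeq gene start (GRCm38.p6), read 5′ to 3′ on the minus strand, with each CG dinucleotide in capitals. Windows for 5 of the 8 members were found (Cacna1b, Cacna1c, Cacna1d, Cacna1e, Cacna1i). The Cacna1e window is chr1:154725871-154726170 and the Cacna1b window is chr2:24763103-24763402.
Cacna1e: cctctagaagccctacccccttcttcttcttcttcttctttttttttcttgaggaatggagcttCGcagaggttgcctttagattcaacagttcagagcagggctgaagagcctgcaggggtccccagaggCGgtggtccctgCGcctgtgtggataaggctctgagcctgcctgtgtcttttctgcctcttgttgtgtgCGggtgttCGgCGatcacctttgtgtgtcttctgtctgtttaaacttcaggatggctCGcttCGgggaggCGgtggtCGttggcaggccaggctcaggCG
Cacna1b: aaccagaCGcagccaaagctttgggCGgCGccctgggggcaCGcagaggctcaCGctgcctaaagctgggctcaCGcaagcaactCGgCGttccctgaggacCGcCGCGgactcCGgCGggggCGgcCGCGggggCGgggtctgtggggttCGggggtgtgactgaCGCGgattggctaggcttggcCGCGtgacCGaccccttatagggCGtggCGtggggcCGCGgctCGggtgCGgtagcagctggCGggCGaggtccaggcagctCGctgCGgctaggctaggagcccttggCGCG
The letters CG, which read the same on both strands, occurred 11 times in the Cacna1e window and 35 times in the Cacna1b window, and the bases G and C made up 55.3% and 72.3% of them. Over all 32851 windows of this kind the median was 7 CG, and 58.6% had fewer than the Cacna1e window and 93.0% fewer than the Cacna1b window. The Cacna1e start lies inside the longer GENCODE gene, and in its window the letters atg stand next to that start. Whether transcription begins there was not tested. The Cacna1e window may therefore be a region unlike the Cacna1b window and the other windows it is set beside. No reads at promoters were measured, and the letters are given as a description only.

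Cacna1g encodes a T-type pore prominent in thalamic relay neurons, where it supports burst firing (chr11:94408391-94474198, minus strand). Left replicates 1 to 5 had 9.21, 56.2, 78.0, 100.1 and 9.09 CPM. Right replicates 1 to 5 had 12.1, 35.4, 106.5, 77.6 and 11.5 CPM. The 4 lowest libraries were replicates 1 and 5, the sides overlapped at 50.5 ± 40.8 and 48.6 ± 42.1 CPM, and the highest library was 11.7 times the lowest. Within replicates 1 and 5 alone, both left libraries were below both right ones. This also held for Cacna1d and Cacna1h, and the reverse held for Cacna1a. The share of all genes that separate in this way was not counted. With 2 libraries a side such separation arises readily by chance. The Cacna1d values lay close together, at 49.8 and 50.6 CPM (left) against 51.1 and 52.1 CPM (right). No side pattern is read from these orders.

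Cacna1h encodes a T-type pore known from sensory neurons and other tissues (chr17:25374285-25433783, minus strand, 1.62% of exonic bases shared with Tpsg1 on the other strand). It was the scarcest member, at 1.26, 3.25, 7.20, 6.32 and 1.06 CPM in left replicates 1 to 5. Right replicates 1 to 5 had 1.53, 2.76, 9.53, 3.55 and 1.501 CPM. These rest on 59 to 629 reads per library, and right replicate 3 stood above the other right libraries. The side means were 3.82 ± 2.83 and 3.78 ± 3.33 CPM, and the ratio of highest to lowest was 8.95.

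Cacna1i encodes a slowly inactivating T-type pore found almost only in brain (chr15:80287238-80398279, plus strand). Left replicates 1 to 5 had 18.7, 24.7, 26.0, 29.0 and 19.95 CPM, and right replicates 1 to 5 had 19.3, 22.6, 31.9, 24.2 and 19.8 CPM. It was nearly even, with replicates 1 and 5 the lowest of each side by a small margin, side means of 23.7 ± 4.28 and 23.6 ± 5.08 CPM and a highest to lowest ratio of 1.70. Among the T-type genes, then, the ratio was 1.70 for Cacna1i, 8.95 for Cacna1h and 11.7 for Cacna1g.

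As a count, 7 of 8 members were higher in every one of replicates 2 to 4 than in any of replicates 1 and 5, and none was lower in that sense. Cacna1e was the exception. Among all 16250 tested genes 24.3% were higher in that way and 22.9% lower. The highest library exceeded the lowest by more than 2-fold for 5 of 8 members, against 51.2% of tested genes, and the median ratio was 5.83 over members and 2.03 over tested genes. Without replicates 1 and 5, 4 of 8 members passed 2-fold, with a median ratio of 2.35 against 1.68 for tested genes (34.7% over 2-fold). Within replicates 1 and 5 alone, 0 of 8 did, with ratios of 1.05 to 1.44, a median of 1.12 against 1.19 for tested genes, and 11.2% of tested genes over 2-fold. The glial, thalamic and lateral habenula sums given above moved with the same libraries, and their part in the levels of the pore subunits was not tested.

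Reads of the 8 genes together came to 1075 CPM in left replicate 5, the lowest, and 1643 CPM in left replicate 4, the highest. Cacna1e held 83.7% of them in left replicate 1 (Wilson 95% interval 83.5% to 84.0%) and 55.2% in right replicate 3 (54.9% to 55.6%), its largest and smallest shares. These intervals cover counting error only. The share of the L-type genes was 12.7% to 20.5%, that of the T-type genes 2.53% to 10.5%, and that of the P/Q- and N-type genes 0.986% to 14.8%. All 4 libraries of replicates 1 and 5 had Cacna1e shares of 83.0% to 83.7%, and right replicate 2, with intermediate marker sums, had 75.6%. Taken per kilobase of the merged exons of all transcripts, the Cacna1e share was 38.5% to 75.3%, and P/Q- and N-type genes took 2.09% to 24.7%. These shares depend on the length chosen. Cacna1e has 25228 merged exon bases, a longest transcript of 14921 and 7246 merged coding bases. Cacna1b has 9942, 9736 and 7326. Shares by the other 2 lengths were not computed.

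**Figure D2:**
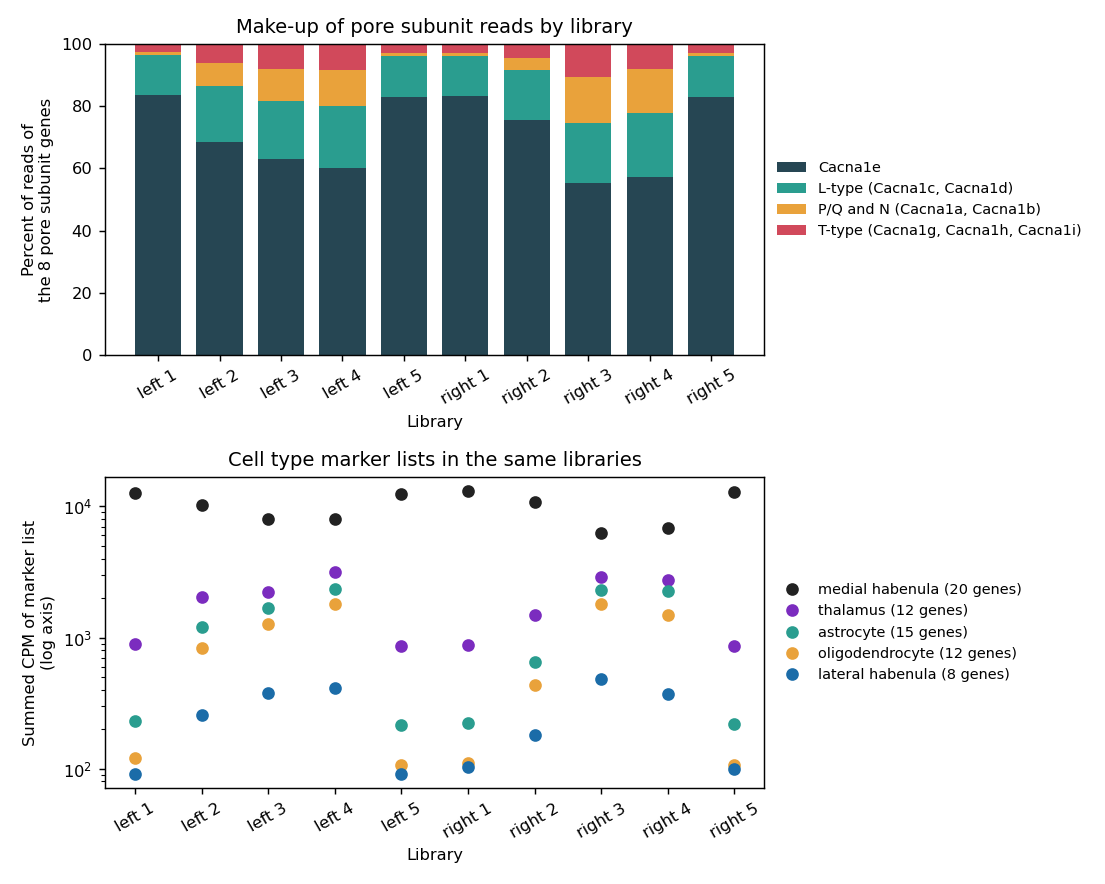
Upper panel, percent of the pore subunit reads that came from each channel class in each library; lower panel, summed CPM (log axis) of 5 marker lists in the same libraries. The P/Q- and N-type share is about 1% where astrocyte sums are 216 to 230.3 CPM and reaches 14.8% in right replicate 3, where that sum is 2299 CPM. It is 11.8% in left replicate 4, which has the highest astrocyte sum, 2350.0 CPM. The oligodendrocyte, thalamus and lateral habenula sums are also lowest in replicates 1 and 5, and the medial habenula sums are highest there. Thalamus sums are 865 to 899.5 CPM in replicates 1 and 5 and 1487 to 3175 CPM in replicates 2 to 4.

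To compare levels between genes, CPM was divided by the kilobases of merged exon. The mean over 10 libraries was 36.2 ± 3.50 CPM per kilobase for Cacna1e, 7.47 ± 2.84 for Cacna1c, 5.29 ± 4.82 for Cacna1b and 4.89 ± 3.86 for Cacna1g. It was 4.78 ± 0.80 CPM per kilobase for Cacna1d, 3.60 ± 3.21 for Cacna1a, 2.40 ± 0.45 for Cacna1i and 0.389 ± 0.299 for Cacna1h. Cacna1e was first and Cacna1h last of the 8 in all 10 libraries. Cacna1d was the third in all of replicates 1, 2 and 5 and the sixth in all of replicates 3 and 4, and Cacna1i was the fourth in replicates 1 and 5 and the sixth or seventh elsewhere.

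Neighbours in this order were compared within libraries by an exact two-sided sign-flip permutation test, with adjustment over 7 pairs and a smallest possible p of 0.00195. The order was set by the means of these same libraries, so the pairs and their direction came from the values tested. The p-values do not allow for that choice. Cacna1e exceeded Cacna1c by 2.37 on the log2 scale (SD 0.65, higher in 10 of 10 libraries, exact p = 0.00195, adjusted p = 0.00684). Cacna1i exceeded Cacna1h by 2.99 (SD 0.87, 10 of 10, exact p = 0.00195, adjusted p = 0.00684). Cacna1c exceeded Cacna1b by 1.36 (SD 1.45, 8 of 10, exact p = 0.0176, adjusted p = 0.0410). This last call was lost (adjusted p = 0.0638 to 0.0820 by the exact test) without any 1 of left replicates 1, 2, 4 and 5 or right replicates 1, 2 and 5, and at an adjusted p of 0.164 with replicates 1 and 5 of each side averaged. Its mean was 2.97 in replicates 1 and 5 and 0.29 in replicates 2 to 4, so most of the difference came from the former 4 libraries. The other 4 pairs, Cacna1b with Cacna1g, Cacna1g with Cacna1d, Cacna1d with Cacna1a and Cacna1a with Cacna1i, did not pass over 10 libraries (exact p = 0.0605 to 0.645), where the mean joins unlike libraries. Cacna1d was above Cacna1a by a mean of 3.04 on the log2 scale in replicates 1 and 5 and by 0.022 in replicates 2 to 4, and below it in replicates 3 and 4 of both sides. Cacna1g over Cacna1d had means of -1.98 and 0.42, Cacna1a over Cacna1i of -2.003 and 0.96, and Cacna1b over Cacna1g of -0.84 and 0.12, in replicates 1 and 5 and in replicates 2 to 4. These values by replicate number were not tested.

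**Figure D3:**
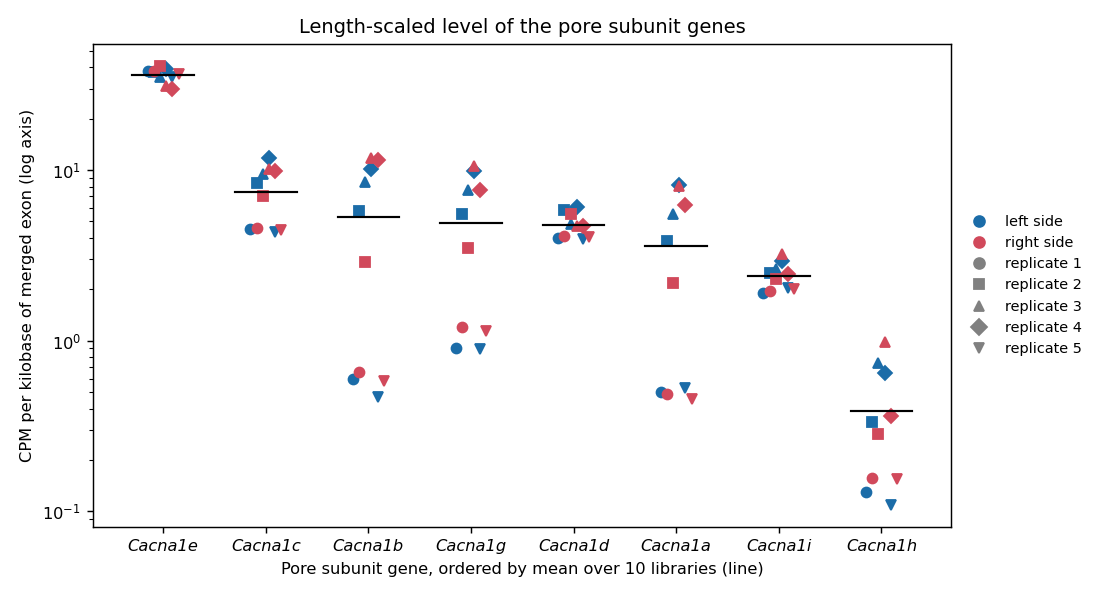
CPM per kilobase of merged exon (log axis) for the 8 genes, ordered by their mean over 10 libraries (line), with colour for the side and symbol for the replicate number. Cacna1e lies above all others at 29.8 to 40.8, and Cacna1h, at 0.109 to 0.976, is the lowest of the 8 within each library.

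The series sets the left against the right habenula. In edgeR's quasi-likelihood test (Benjamini-Hochberg adjusted p under 0.05), 0 of 8 members were called, and so were 0 of 16250 genes tested (0% called), with 90 genes at an unadjusted p under 0.05. DESeq2 and limma-voom called 0 as well, with 141 and 2359 genes at an unadjusted p under 0.05. The left minus right log2 fold change was 0.05 for Cacna1e (95% interval -0.16 to 0.26), 0.08 for Cacna1d (-0.25 to 0.40) and -0.02 for Cacna1i (-0.41 to 0.38). All 3 intervals lay within 1 of 0 on the log2 scale. The intervals of the genes that were scarce in replicates 1 and 5 were far wider. The log2 fold change was 0.05 for Cacna1a (-2.13 to 2.23), -0.17 for Cacna1b (-2.51 to 2.18) and 0.01 for Cacna1g (-1.83 to 1.84). It was -0.02 for Cacna1h (-1.52 to 1.48) and 0.06 for Cacna1c (-0.71 to 0.84). Under limma-voom, which weights libraries, the log2 fold changes of Cacna1a, Cacna1b and Cacna1g were 1.99, 1.960 and 1.36 (limma adjusted p = 0.285 for each). In the edgeR test the adjusted p was 1.0 for all 8. The median over members was 0.03, against -0.01 over all tested genes. The sign of the fold change turned under at least 1 alternative for each of the 8. In none of the 8 did all left libraries lie above or below all right ones, and 0.215% of tested genes separated the sides in that way.

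**Figure D4:**
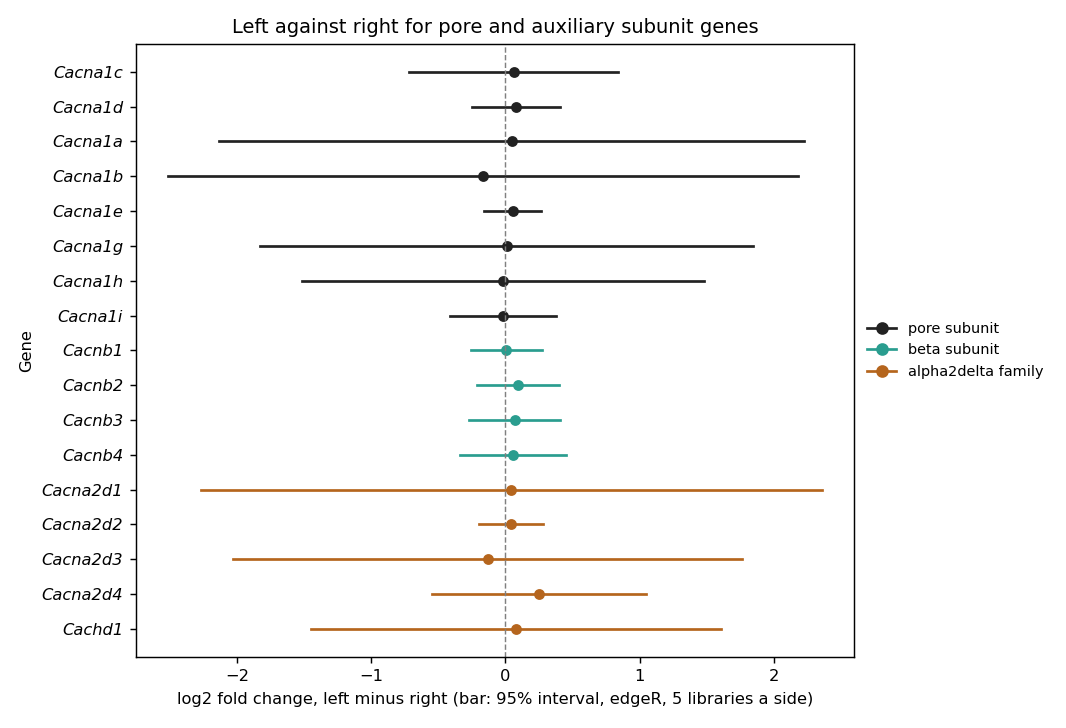
Left minus right log2 fold change with its 95% interval (edgeR, 5 libraries a side) for the pore subunits, the 4 beta subunits and the 5 genes of the alpha2delta family. All intervals cross 0, and those of Cacna1a, Cacna1b, Cacna1g, Cacna1h, Cacna2d1, Cacna2d3 and Cachd1 span more than 2 on the log2 scale.

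Replicates 1 and 5 alone gave another count. With 2 libraries a side, edgeR called 1992 of 15569 genes (12.8%), 893 higher on the left and 1099 higher on the right. Of the members 1 was called: Cacna1g, at 9.21 and 9.09 CPM (left) against 12.1 and 11.5 CPM (right), had a log2 fold change of -0.37 (95% interval -0.52 to -0.21, adjusted p = 0.0180 by edgeR). That is 1 of 8 members beside 12.8% of all genes. Replicates 1 and 5 of a side differed from each other by far less than other pairs of a side. Over genes with 20 to 100 reads the mean chi-square per gene was 1.13 on the right and 1.45 on the left, where 1 is expected from counting alone, and 4.03 or more for every other pair of a side. Over genes with 100 to 500 reads it was 1.32 on the right and 2.16 on the left, above counting noise, and 6.72 or more for every other pair. Whether replicates 1 and 5 of a side share RNA was not tested, and if they do, this call has no replicate check. With replicates 2 to 4 alone, 0 genes were called (72 at an unadjusted p under 0.05) and Cacna1g had a log2 fold change of 0.07.

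The auxiliary subunits gave the same contrast of even and uneven genes. The 4 beta subunits, which bind pores other than the T-type from the cell interior, were all nearly even. Their highest to lowest ratios were 1.52 to 1.87. Cacnb3 lay at 1096 CPM (right replicate 4) to 2053 CPM (right replicate 2), Cacnb4 from 192 to 342.5 CPM, Cacnb2 from 135 to 206 CPM and Cacnb1 from 49.1 to 74.4 CPM. Per kilobase of merged exon, Cacnb3 was the highest of the pore, beta and alpha2delta genes, at 398 ± 68.4 CPM per kilobase over 10 libraries, beside 28.8 ± 5.45 for Cacnb4, 14.5 ± 1.76 for Cacnb1 and 12.5 ± 1.95 for Cacnb2. In the annotation 16.0% of the exonic bases of Cacnb4 are shared with a gene of the other strand, as are 7.32% of those of Cacnb2. Of the 4, 0 were called between the sides (log2 fold changes of 0.01 to 0.09). In all of replicates 2 to 4, 1 of 4 was higher than in replicates 1 and 5, beside 24.3% of tested genes.

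The alpha2delta family, extracellular subunits that raise channel density at the membrane, was split. Cacna2d2 was even, at 299, 369, 332, 376 and 315 CPM in left replicates 1 to 5 and 338, 386, 288, 275 and 336 CPM in right replicates 1 to 5. Cacna2d1, a binding site of gabapentin, followed the pattern of Cacna1a and Cacna1b. It had 3.74, 37.3, 54.0, 82.4 and 3.41 CPM in left replicates 1 to 5 and 4.51, 22.4, 80.1, 58.4 and 3.94 CPM in right replicates 1 to 5, a ratio of 24.2 between highest and lowest. Cacna2d3 ranged from 2.11 to 29.1 CPM, Cacna2d4 from 3.003 to 9.91 CPM and Cachd1, a relative of the family, from 5.81 to 45.3 CPM. All 4 of these were higher in every one of replicates 2 to 4 than in replicates 1 and 5, and Cacna2d2 was not. The share over tested genes was 24.3%. Per kilobase, Cacna2d2 had 41.7 ± 4.76 CPM over 10 libraries and Cacna2d1 2.82 ± 2.58. None of the 5 was called between the sides, with log2 fold changes from -0.13 to 0.25.

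**Figure D5:**
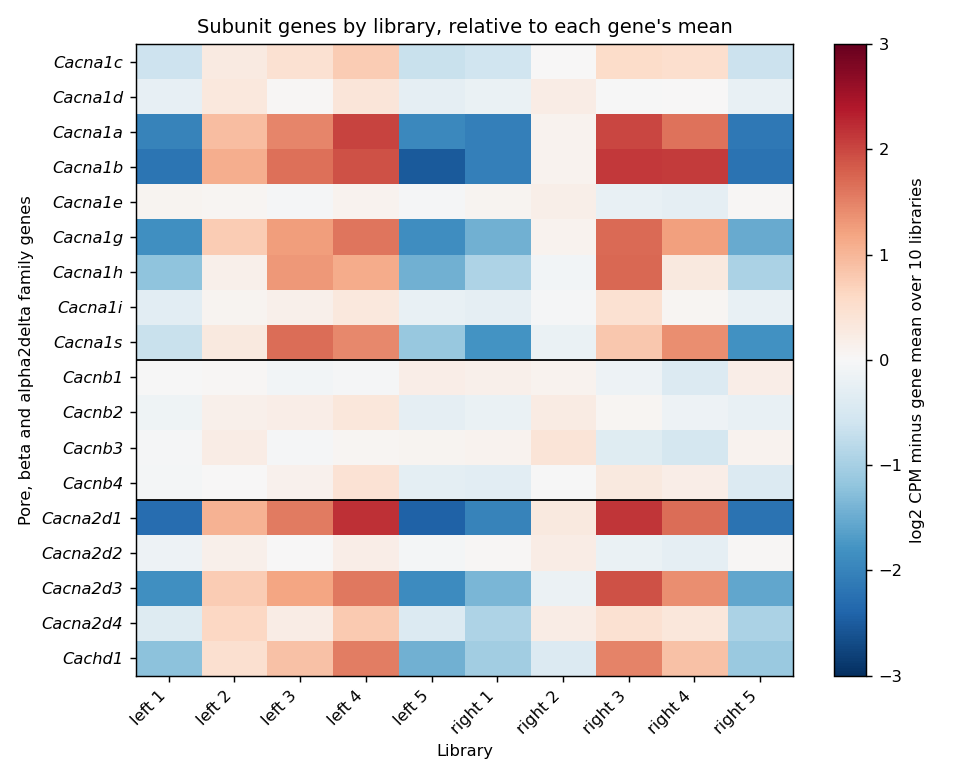
Log2 CPM of pore, beta and alpha2delta genes in each library, minus the mean of the gene over 10 libraries, with red for above and blue for below that mean. Cacna1e, Cacna2d2 and the beta subunits stay pale, while Cacna1a, Cacna1b, Cacna1g, Cacna2d1 and Cacna2d3 turn from blue in replicates 1 and 5 to red in replicates 3 and 4.

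The remaining pore genes of the L-type class had few reads. Cacna1s, the skeletal muscle pore, had a mean of 0.943 CPM (13 to 127 reads per library), and 19.98% of its exonic bases are shared with Gm37759 on the other strand. Cacna1f, the retinal pore, had a mean of 0.173 CPM, on 4 to 19 reads per library. Neither was called between the sides, with log2 fold changes of 0.45 and -0.03.

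Other genes of the pathway were read from the same test, and 0 of them were called. Of 8 gamma-related genes 7 were tested (Cacng6 was not, with at most 2 reads in a library), with a median log2 fold change of 0.02; Cacng5 (75.1 to 125 CPM) and Cacng7 (34.2 to 107 CPM) led in CPM. Of 16 genes that bind or regulate the channels 15 were tested, all but Rem1, with a median of -0.01; among them was the ubiquitin ligase gene Nedd4 (931 to 1554 CPM). In this list 1 gene, Stac3, separated the sides without a call, with means of 0.309 CPM (left) and 0.170 CPM (right) (named after its values were seen, on 6 to 26 reads per library; log2 fold change 0.83, edgeR adjusted p = 1.0). The 13 genes of the release site, not all of them channel tethers, had a median of -0.01. They were led by the calcium sensor gene Syt1 (716 to 1169 CPM) and the active-zone gene Erc2 (275 to 348 CPM). The 21 genes of calcium stores and extrusion had a median of 0.07, led by the store pump gene Atp2a2 (419 to 1202 CPM) and the plasma membrane pump gene Atp2b3 (394 to 696 CPM). In the order of these 4 lists, 3, 4, 10 and 14 genes were higher in all of replicates 2 to 4 than in replicates 1 and 5, and 0, 3, 1 and 0 were lower. Over all tested genes 24.3% were higher and 22.9% lower in that way. With replicates 1 and 5 alone edgeR called 7 of these 69 related genes, auxiliary subunits included, beside 12.8% of all genes: Cacna2d4 and Atp2a1 higher on the left (log2 fold changes of 0.54 and 2.50), and Cacng1, Cacng5, Stac2, Camk2a and Atp2b4 higher on the right (-1.42, -0.24, -1.24, -0.28 and -0.33). Of these, Atp2a1 rested on 12 and 13 left reads against 3 and 2 right reads, and Cacng1 on 6 and 5 against 18 and 17.

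Likeness of profiles was measured as the root mean square difference of log2 CPM over 10 libraries after removal of each gene's mean, among 8956 genes of at least 10 CPM that are no members. Points share libraries, so no test is given. The smallest differences were 0.029 and 0.038 for Cacna1e, with Rab12 (94.4 to 127 CPM) and Vezf1 (141 to 183 CPM), where the median over the pool was 0.26. Cacna1a was nearest to Hepacam (0.10; 1.49 to 28.8 CPM), a gene known for its expression in astrocytes, and to Plekhb1 (0.12), against a median of 1.81. Cacna1b was nearest to Timp3 (0.13) and Map3k5 (0.14), and Cacna1g to Unc5d (0.08) and Nrxn3 (0.10). Cacna1c was nearest to Nin (0.05) and Dlgap1 (0.06), Cacna1d to B4galnt4 (0.05) and Nacc1 (0.06), and Cacna1i to Hdac4 (0.06) and Git1 (0.06). Cacna1h had no close match, with Atp2b4 and Peg10 both at 0.24. Among the members themselves Cacna1d and Cacna1i (0.19), Cacna1d and Cacna1e (0.23) and Cacna1a and Cacna1b (0.26) were the most alike pairs, and Cacna1b and Cacna1e (1.98) the least.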

How the data were processed

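The authors deposited raw counts of reads per gene, 1 table per library; STAR 2.0.0e and HTSeq with the build mm10 are named in the submitters' processing notes. The annotation, strand setting and filters behind the counts are not given in the sources at hand. Of 32537 rows per table, 6 name no gene and were left out; reads outside genes were 13.6% to 18.9% and ambiguous reads 2.25% to 2.81%. Gene reads summed to 42488448 to 67942836 per library, and only counting error is covered by the intervals of shares. Groups came from the sample titles, which give the side and a replicate number.

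CPM is over the gene rows of a library. Sides were compared over 16250 genes with edgeR 4.0.16 (R 4.3.3; filterByExpr with a minimum count of 10, TMM factors, robust quasi-likelihood F test, side as the only term, two-sided, Benjamini-Hochberg over all genes), and log2 fold changes carry 95% intervals from that fit. Alternatives used DESeq2 1.42.0, limma 3.58.1 (voom with sample weights), other normalisations and filters, blocks, a glial score, and subsets of libraries. On simulated data the fit was tested first, with a spread between libraries that left out the part following the glial score. That test therefore does not show how the fit performs on the wider spread of these libraries. Exon lengths and coordinates came from GENCODE M21 (GRCm38), which held 23161 of 32531 gene names; CPM per kilobase uses the merged exons of all transcripts. Sequences are from RefSeq (GRCm38.p6).

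The members and gene lists were chosen with earlier results of these data known. All members and all beta, alpha2delta and other pore genes are named, the 2 most abundant genes of every other list with any gene past the threshold, and the 2 genes nearest in profile to each member (at least 10 CPM). Some genes that this rule names are not reported here. Figures were drawn with matplotlib 3.10.9.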

Additional observations from a re-analysis of the deposited data

Results flagged for a closer look

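Cacna1h in right replicate 3, at 9.53 CPM, lay far from the other 4 right libraries, which were at 1.501 to 3.55 CPM: the gap to the nearest of them was 0.744 of the whole range, above the critical value of 0.71 for 5 samples. Of 38 groups searched this was the only one to pass, and chance alone passes about 1 in 20. Right replicate 3 also had the highest summed CPM of lateral habenula, GABAergic, oligodendrocyte and endothelial markers of the 10 libraries, and the part of these in the value was not tested.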

How the results depend on the processing

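The count of 0 genes between the sides held under every alternative but 1: with replicates 1 and 5 alone it was 1992, and 7 for related channel genes. Leaving out each library gave 0 and 0 throughout. Unadjusted p under 0.05 was reached by 23 genes (replicates 1 and 5 summed) to 2359 genes (limma-voom) where 0 were called; 329 did so with no low-count filter and 34 with a minimum mean of 1 CPM.

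Signs of member log2 fold changes near 0 turned easily. They turned to 0.017 and 0.0070 for Cacna1h and Cacna1i with library totals only, to 0.0034 for Cacna1h without a filter, and to 1.960, -0.017, 0.88 and 0.22 for Cacna1b, Cacna1e, Cacna1h and Cacna1i in limma-voom. They turned to 0.041 and 0.012 for Cacna1h and Cacna1i with a lane block, a fit that also leaves out both replicate 1 libraries, to -0.027 for Cacna1g with the glial score, and to 0.035 and 0.066 for Cacna1h with replicates 1 and 5 summed and replicates 2 to 4 alone. With replicates 1 and 5 alone they turned to -0.029, -0.037, -0.027 and -0.37 for Cacna1c, Cacna1d, Cacna1e and Cacna1g. Leaving out each library gave ranges of -0.46 to 0.63 (Cacna1a), -0.57 to 0.34 (Cacna1b), -0.14 to 0.23 (Cacna1c), -0.0048 to 0.15 (Cacna1d), 0.01 to 0.09 (Cacna1e), -0.39 to 0.53 (Cacna1g), -0.37 to 0.69 (Cacna1h) and -0.10 to 0.13 (Cacna1i). The cause was not tested.

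Deviations of same-numbered libraries of the sides correlated at 0.860, 0.806, 0.715 and 0.873 for replicates 1, 3, 4 and 5 but at 0.096 for replicate 2, not every library correlated best with its own number, and replicates 2 to 5 shared a sequencing lane across sides. Since the labels give no shared animal and not every pair was above 0.1, the numbers were not taken as pairing. The replicate block gave 0 calls (297 at an unadjusted p under 0.05) and -0.045 for Cacna1g, and the block with the glial score 0 calls and -0.025.

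Of the neighbours in level, 2 to 3 of 7 passed when each library was left out, 2 with replicates 1 and 5 averaged, and 4 with the longest transcript as length, where Cacna1g exceeded Cacna1b (-0.51, exact test, adjusted p = 0.0376). The sign for Cacna1a over Cacna1i turned to 0.29 with the longest transcript and 0.22 with replicates 1 and 5 averaged. Cacna1d was the third by mean level with coding or longest transcript lengths. With replicates 1 and 5 alone, a subset chosen after seeing the data, the count of members over 2-fold went from 5 to 0. Among the pore genes, depth limits Cacna1h, Cacna1s and Cacna1f most.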
